A study of Mus musculus with 12 samples.

Results

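Endothelial cells line the blood vessels of the hippocampus, and pericytes and smooth muscle cells, together called mural cells, wrap around them. The 40 genes described here are a list of symbols known from these cells, 31 from endothelial cells, 6 from pericytes and 3 from smooth muscle cells. Of the endothelial genes, 5 were set apart as known from other cells as well (Bsg, Slc2a1, Slco1c1, Lsr and Itm2a). Whether the remaining ones are endothelial alone was not checked. All 40 were taken by name from the 24209 genes of the table. No measured value enters the rule, but the list was drawn up with earlier results of these data known. The RNA came from whole hippocampi, dissected from 12 male mice of the C57BL/6 strain, in 2 experiments of 6 mice each. At an age of 10 weeks the mice received bilateral injections of an AAV5 vector, and the tissue was taken 10 weeks later. All 12 mice therefore carried a vector with GFP. In the miR-9 experiment, 3 GFP-miR-9sp mice, whose vector also carried a miR-9 sponge of 8 sites that pair imperfectly with the miRNA, were compared with 3 GFP Ctrl mice, whose vector carried GFP without a sponge. For miR-34, 3 mice with a GFP-miR-34sp vector were set against another 3 GFP Ctrl mice. A synapsin promoter drives the vectors in neurons and not in vascular cells, and the whole hippocampus was sequenced although the labels call its cells neurons.

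The endothelium of the brain forms the blood-brain barrier. Tight junctions, in which claudin-5 (Cldn5) is the main claudin, seal the cells to each other, and transporters such as the glucose carrier GLUT1 (Slc2a1) and the efflux pump P-glycoprotein (Abcb1a) decide what crosses. Endothelial cells respond to VEGF through its receptors Flt1 and Kdr and to angiopoietins through Tek. Pericytes surround capillaries and respond to PDGF through Pdgfrb, while smooth muscle cells surround arterioles and contract by means of smooth muscle actin (Acta2), its regulator transgelin (Tagln) and smooth muscle myosin (Myh11).

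The sponges bind miRNAs by their seed, bases 2 to 8, which is shown in capitals in the mature sequences of RefSeq (GRCm38.p6).
mmu-miR-9-5p: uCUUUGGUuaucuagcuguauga
mmu-miR-34a-5p: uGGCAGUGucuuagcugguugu
mmu-miR-34b-5p: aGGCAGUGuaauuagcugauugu
The miR-34 sequences shown share 1 seed, GGCAGUG, which differs from that of miR-9, CUUUGGU. The paper also counts miR-34c to this family, but its mature sequence was missing from the source used and is not shown. The letters complementary to each seed were searched on the sense strand of 3′ UTRs from GENCODE M1 (mm9), taking the longest per gene, ACCAAAG for miR-9 and CACTGCC for miR-34. A miR-9 match was found in 7 of the 28 vascular genes with enough reads for a test and in 13.9% of the 10574 tested genes that have a 3′ UTR in this annotation. A miR-34 match was found in 3 of the 28 vascular genes and in 17.4% of the 10574. The median 3′ UTR of the 28 genes was 740 bases long, against 1192 for the 10574 genes.

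The 7 genes with a miR-9 match were Rgs5, Anpep, Erg, Podxl, Ptprb, Cldn5 and Flt1. Of their sites, 1 site each of 4 genes is shown, all of them followed by A (called 8mers), and all 3 miR-34 sites of tested genes are shown, none of them an 8mer. The match is in capitals, in mm9.
Rgs5 (chr1:171625213-171625241, plus strand, miR-9): agcaattgaaaACCAAAGaaaaagctttc
Anpep (chr7:86966745-86966773, minus strand, miR-9): cgagatccagaACCAAAGaatcaacaggg
Erg (chr16:95581934-95581962, minus strand, miR-9): accatgtcaaaACCAAAGaagaagcagac
Podxl (chr6:31470788-31470816, minus strand, miR-9): gagccagctgtACCAAAGagaaaccagag
Podxl (chr6:31470057-31470085, minus strand, miR-34): cacgcatcccaCACTGCCcaccctgtgct
Mfsd2a (chr4:122624279-122624307, minus strand, miR-34): tgtcacctcctCACTGCCtgcccactggg
Tagln (chr9:45738268-45738296, minus strand, miR-34): cccagagccacCACTGCCctggcccctgt
The 7 genes with a miR-9 match had log2 fold changes from -0.16 to 0.08 after the miR-9 sponge, with a median of 0.05, and the other 21 had a median of -0.03. After the miR-34 sponge the 3 genes with a miR-34 match had log2 fold changes of -0.33 (Tagln), -0.14 (Podxl) and 0.17 (Mfsd2a), and the other 25 had a median of -0.10. Of the 3 vascular genes that had an unadjusted p under 0.05 after the miR-9 sponge, 0 held a miR-9 match, and of the 5 after the miR-34 sponge, 0 held a miR-34 match. A match describes letters in a 3′ UTR and is not evidence of binding.

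The levels of the vascular genes in the 12 mice are given first. Read numbers are counts of reads on RefSeq transcripts, summed per gene. To compare genes they were divided by transcript length as well as library size (RPKM), and to compare mice they were scaled to library size with TMM factors (CPM). Vtn (vitronectin, made by brain pericytes) had the highest level, with a mean of 55.1 RPKM and a range over the mice from 45.9 to 70.1. It was followed by Slc2a1 at 42.2, Itm2a (a membrane protein of brain endothelium) at 40.1, Rgs5 (a regulator of G protein signalling in pericytes) at 39.0 and Cldn5 at 35.9. The ranges of these 4 over the mice overlapped. Among receptors, Ramp2, part of the adrenomedullin receptor, had 27.2, Flt1 14.7, Kdr 5.78, Tie1 4.00 and Robo4, a guidance receptor of endothelial cells, 2.42. The smooth muscle genes Acta2 and Tagln had 10.7 and 5.95, and the largest relative range of the pair was that of Acta2, from 6.16 to 16.6.

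**Figure D1:**
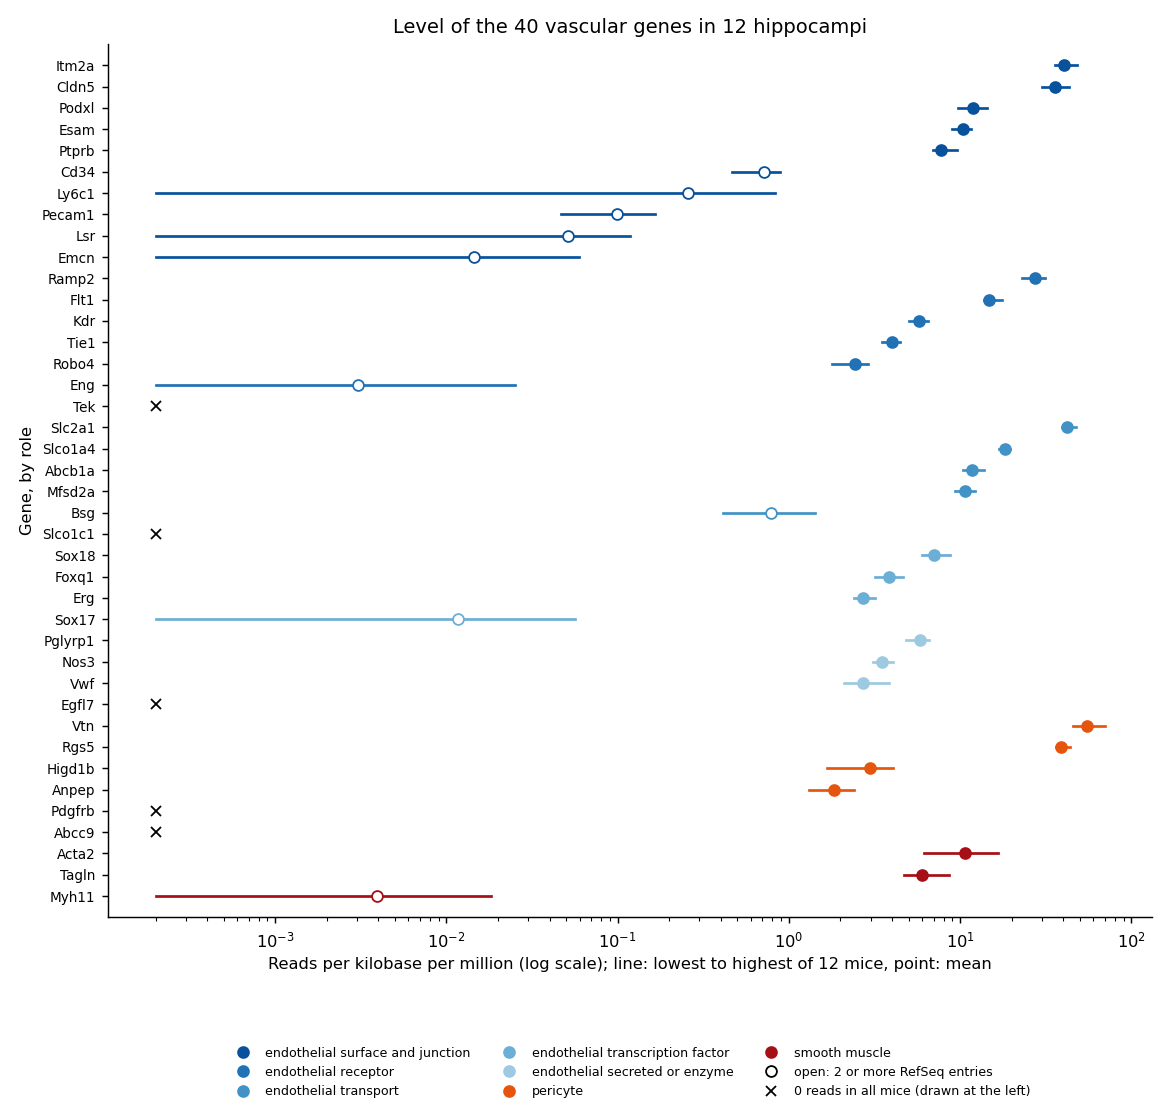
Level of each of the 40 genes in RPKM (log scale), as the mean of 12 mice (point) with the range from the lowest to the highest mouse (line, drawn to the left edge where the lowest mouse had 0 reads). Open points have 2 or more RefSeq entries and crosses had 0 reads in every mouse. The genes with 1 entry lie between 1.31 and 70.1 in every mouse.

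Of the 40 genes, 28 passed the limit of a mean above 10 scaled reads and were tested in every comparison, 22 endothelial and 6 mural. The other 12 included genes that define these cells. Pdgfrb and Abcc9, a potassium channel subunit of pericytes, Tek, the thyroid hormone and anion transporter Slco1c1 and Egfl7 had 0 reads in all 12 mice. Pecam1 (CD31) had 2 to 9 reads per mouse, and Emcn, Lsr, Ly6c1, Eng, Sox17 and Myh11 had so few that at least 1 mouse had 0. Among the vascular genes the zeros went with how the table lists a gene. Genes at 0 in all mice were 0 of 26 with 1 RefSeq entry, 2 of 7 with 2 and 3 of 7 with 3 or more. All 26 vascular genes with 1 RefSeq entry were tested, against 2 of the 14 with 2 or more entries (Cd34 and Bsg). Over the whole table, 57.9% of the genes with 1 entry, 39.8% of those with 2 and 33.8% of those with 3 or more were tested in the miR-9 experiment. The shares at 0 in all mice were closer to each other there, at 17.9%, 19.4% and 26.3%. Markers of other cells that the hippocampus holds in large numbers were also listed at 0, such as Slc4a4 of astrocytes and Itgam of microglia. The rule for reads shared between entries is not given in the sources used here, so the level of a gene with several entries, and a 0 for it, is uncertain and does not show that the cells or their RNA were absent.

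The labelled tissue was checked against its markers. The summed CPM of 10 neuronal markers were 4830 to 6073, those of 10 astrocyte markers 3287 to 3806 and of 10 microglia markers 566.2 to 628.5. Of these 3 lists, Slc4a4 and Itgam were at 0. The 5 erythrocyte markers summed to at most 0.412 CPM, with both beta-globin genes listed at 0. The total counts per mouse ranged from 17279620 to 24428477 in the miR-9 experiment and from 11029604 to 16934133 in the miR-34 experiment. A loss of vascular cells and a lower RNA level per vascular cell cannot be told apart in such bulk samples.

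Some mice stood apart in these genes. GFP Ctrl mouse 8 of the miR-34 experiment had the highest value of its experiment in 4 of 6 mural genes, 8 of 22 endothelial genes and 8 of 9 tested markers of fibroblasts and meninges, against 18.2% of all genes. GFP-miR-9sp mouse 23 had the lowest value of its experiment in 5 of 6 mural genes, 7 of 22 endothelial genes and 7 of 9 fibroblast and meninges markers, against 23.5% of all genes. GFP Ctrl mouse 8 of the miR-9 experiment had the lowest value in 9 of 22 endothelial genes, against 13.9% of all genes, and in 1 of 6 mural genes. Values without the first or the second of these mice, a choice made after the data were seen, are given beside the counts, the class medians and the genes that they moved most. Without the third, the endothelial median after the miR-9 sponge was -0.03.

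The class mean of the 22 endothelial genes varied little between mice and that of the 2 smooth muscle genes varied more. A mean over 22 genes evens out more than a mean over 2, so these spreads are not directly comparable. The mean log2 CPM of the 22 endothelial genes was 4.37 ± 0.07 (SD, n = 3) in GFP Ctrl mice and 4.38 ± 0.05 in GFP-miR-9sp mice, and 4.40 ± 0.05 and 4.33 ± 0.01 in the corresponding groups of the miR-34 experiment. All 12 mice lay between 4.29 and 4.46. The 4 pericyte genes had 4.14 ± 0.07 in GFP Ctrl and 4.01 ± 0.22 in GFP-miR-9sp mice, and 4.18 ± 0.19 in GFP Ctrl and 4.13 ± 0.10 in GFP-miR-34sp mice. The ranges of sponge and GFP Ctrl mice overlapped in both classes and both experiments, except that the 3 GFP-miR-34sp mice (4.32 to 4.34) were below the 3 GFP Ctrl mice (4.36 to 4.46) for endothelial genes.

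The 2 tested smooth muscle genes had a mean log2 level of 3.83 ± 0.32 in GFP Ctrl and 3.55 ± 0.10 in GFP-miR-9sp mice, and 4.36 ± 0.25 in GFP Ctrl and 4.09 ± 0.15 in GFP-miR-34sp mice. Sponge and GFP Ctrl mice overlapped in both experiments. The level of the 6 mural genes minus that of the endothelial genes was -0.33 ± 0.11 in GFP Ctrl and -0.52 ± 0.13 in GFP-miR-9sp mice, and -0.16 ± 0.13 in GFP Ctrl and -0.22 ± 0.04 in GFP-miR-34sp mice. The lowest of the 12 mice was GFP-miR-9sp mouse 23 at -0.67 and the highest was GFP Ctrl mouse 8 of the miR-34 experiment at -0.01. Sponge minus GFP Ctrl, this measure came to -0.19 for miR-9 and -0.06 for miR-34, and to -0.07 and -0.10 when the classes were compared by summed reads per kilobase, so the order of the 2 experiments was not the same under both. The median SD of log2 CPM over genes above 5 CPM was 0.11 for 19 endothelial genes and 0.21 for 5 mural genes, against 0.08 for all 9529 genes. Of single genes, the endothelial Vwf had 0.26, above Acta2 at 0.21 and Tagln at 0.24. The pericyte gene Anpep had 0.35.

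**Figure D2:**
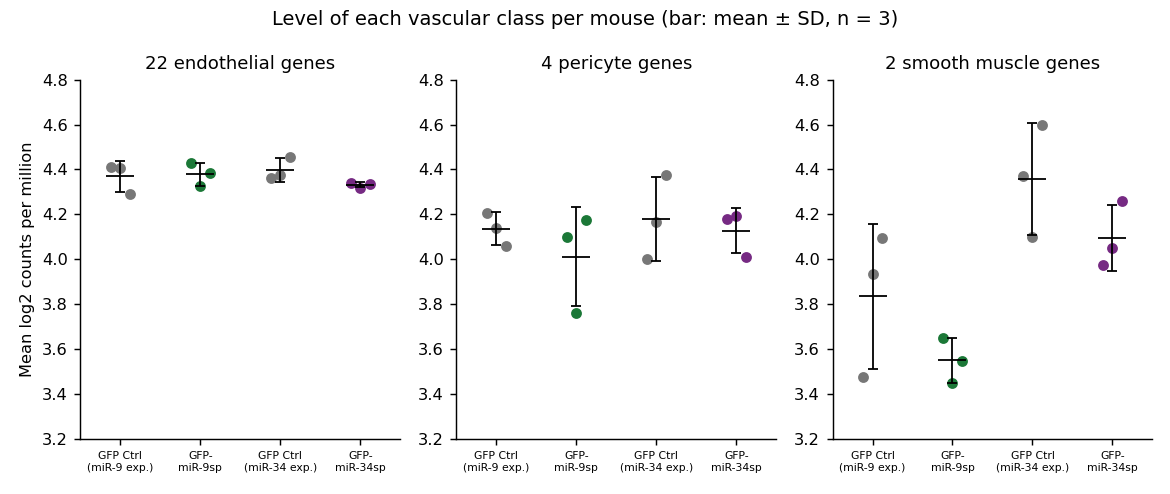
Mean log2 CPM of the tested endothelial, pericyte and smooth muscle genes in each mouse (points) with mean ± SD (bars, n = 3). Over both experiments, the mean of 22 endothelial genes stays between 4.29 and 4.46. The mean of 2 smooth muscle genes, which also differs between the experiments, reaches from 3.45 to 4.60.

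Which vascular genes changed when miR-9 was sponged in neurons was asked with edgeR's quasi-likelihood test, 3 mice against 3. The sponge was followed by no change in a vascular gene that passed an adjusted p (Benjamini-Hochberg) of 0.05, and the smallest adjusted p among them was 0.97. The same was true of all genes, of which 0 of 13045 passed (0%, and 2 genes with DESeq2), while 322 had an unadjusted p under 0.05 in the higher (2.47%) and 295 in the lower direction (2.26%). Among the 28 vascular genes, 1 was higher at that unadjusted limit (Robo4) and 2 were lower (Higd1b and Acta2), which is 1 of 22 endothelial and 2 of 6 mural genes. The median log2 fold change was 0.01 for the endothelial and -0.18 for the mural genes, beside 0.00 for all genes. Within the mural genes the median was -0.01 for the 4 pericyte genes and -0.30 for the 2 smooth muscle genes. Without GFP-miR-9sp mouse 23 the mural median was -0.10, 0 vascular genes were lower at the unadjusted limit and 2 were higher, Podxl at 0.15 (unadjusted p = 0.0159, edgeR) and Anpep at 0.29 (unadjusted p = 0.0404, edgeR).

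Robo4 (chr9:37209482-37221608, plus strand, mm9) stood at 8.86, 8.62 and 9.34 CPM in the GFP Ctrl mice and at 9.96, 10.4 and 10.6 in the GFP-miR-9sp mice. All 3 sponge mice were above all 3 control mice, a pattern of 5.47% of all genes, and Robo4 was the single vascular gene of the 28 with it. The log2 fold change was 0.21 ± 0.08 (SE) with an unadjusted p of 0.0337 and an adjusted p of 0.97 in edgeR's quasi-likelihood test. The unadjusted p was above 0.05 in 4 of the 6 fits that left out a mouse (GFP Ctrl mouse 16 or 2, or GFP-miR-9sp mouse 23 or 9), reaching 0.0919.

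Among pericyte genes, Higd1b, a hypoxia-inducible domain family gene that marks pericytes (chr11:102697163-102699354, plus strand, mm9), had 2.51, 1.90 and 1.95 CPM in GFP Ctrl mice and 1.59, 1.22 and 1.60 in GFP-miR-9sp mice. The sponge mice were all below the controls, as were those of 4.83% of all genes. Its log2 fold change of -0.53 ± 0.20 (unadjusted p = 0.0258, edgeR) was the largest in size of the 28 genes, at a low level, and was -0.42 without GFP-miR-9sp mouse 23 and -0.38 without GFP Ctrl mouse 16, both with an unadjusted p above 0.05. The other tested pericyte genes, Rgs5, Vtn and Anpep (aminopeptidase N), had log2 fold changes of 0.07, -0.08 and 0.08 with overlapping groups, and 0.06, 0.02 and 0.29 without GFP-miR-9sp mouse 23.

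Acta2 (chr19:34315580-34329826, minus strand, mm9) had 16.4, 22.02 and 25.8 CPM in the GFP Ctrl mice and 18.1, 15.8 and 16.95 in the GFP-miR-9sp mice. The groups overlapped, as GFP Ctrl mouse 16 had a value inside the range of the sponge mice. The log2 fold change was -0.33 ± 0.14 (unadjusted p = 0.043, edgeR) and moved from -0.18 without GFP Ctrl mouse 8 to -0.49 without GFP Ctrl mouse 16, the single fit without a mouse that kept an unadjusted p under 0.05. Tagln had 7.501, 10.6 and 11.3 in GFP Ctrl and 8.66, 7.49 and 8.04 in GFP-miR-9sp mice, with a log2 fold change of -0.27 ± 0.15 (unadjusted p = 0.101, edgeR). In both genes it was the same control mouse, 16, that lay with the sponge mice. Myh11 had 6 reads in all 12 mice together and gave no value.

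In the other roles, the largest log2 fold change after the miR-9 sponge was 0.49 ± 0.26 for Bsg (basigin, a partner of monocarboxylate transporters), which rested on 1.68, 1.17 and 1.08 CPM in GFP Ctrl and 2.49, 1.51 and 1.55 in sponge mice. Cd34, a sialomucin of endothelial cells, had 2.31, 1.90 and 2.10 in GFP Ctrl and 1.79, 1.74 and 1.958 in sponge mice, with a log2 fold change of -0.20 ± 0.17. For the transcription factor Sox18 the values were 13.6, 14.1 and 10.8 against 11.6, 11.6 and 11.1, and the log2 fold change was -0.17 ± 0.11. Nos3, the endothelial nitric oxide synthase, had 15.1, 16.8 and 15.6 against 15.04, 12.8 and 16.4, and -0.10 ± 0.10. Groups overlapped in all of these. Of the barrier genes, Cldn5 had a log2 fold change of 0.04 ± 0.08, Slc2a1 of -0.03 ± 0.04 and Abcb1a of 0.05 ± 0.05. The transporters Slco1a4 and Mfsd2a had 0.06 ± 0.05 and -0.15 ± 0.09.

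**Figure D3:**
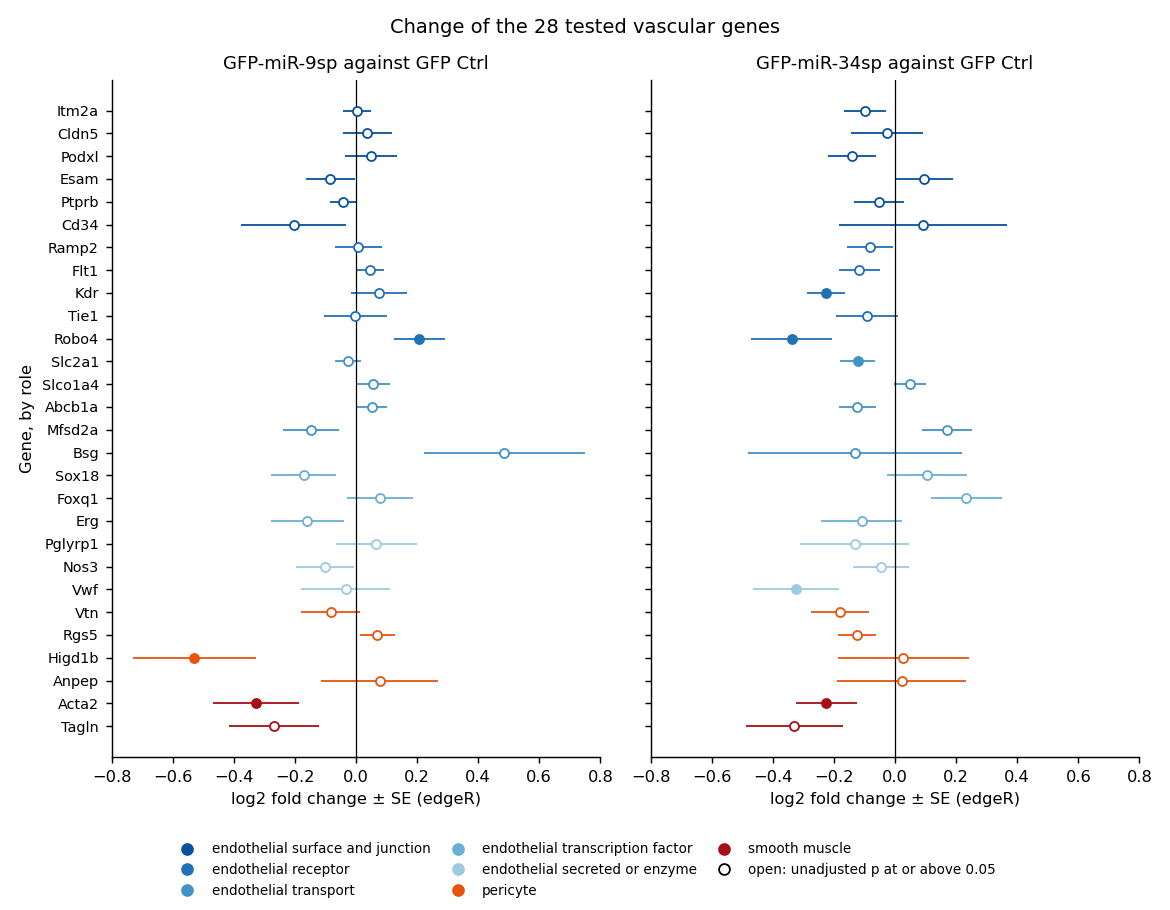
Log2 fold change ± SE (edgeR) of the 28 tested vascular genes after each sponge, ordered by role. Filled points have an unadjusted p under 0.05, 3 after the miR-9 sponge and 5 after the miR-34 sponge, and none passed the adjusted limit.

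After the miR-34 sponge more vascular genes lay below than above their controls. Of the 22 endothelial genes 16 had a negative log2 fold change, as did 4 of the 6 mural genes, and the medians were -0.09 and -0.15 beside 0.00 for all genes. None of the 28 passed an adjusted p of 0.05 in edgeR's quasi-likelihood test, the smallest being 0.481 for Kdr, whereas 8 of 12492 genes did (0.064%), all of them lower. At an unadjusted p under 0.05, 5 vascular genes were lower (Kdr, Robo4, Vwf, Slc2a1 and Acta2) and 0 were higher, beside 3.72% of all genes lower and 2.71% higher. Without GFP Ctrl mouse 8 the endothelial median was -0.04 and the mural median -0.09, and 3 vascular genes were lower (Kdr, Robo4 and Rgs5) and 2 higher (Mfsd2a and Foxq1) at the unadjusted limit.

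The VEGF receptor Kdr (chr5:76328852-76374483, minus strand, mm9) had 33.2, 35.3 and 35.1 CPM in the GFP Ctrl mice and 30.2, 28.6 and 29.5 in the GFP-miR-34sp mice. Every sponge mouse was below every control mouse, which held for 4 of the 28 vascular genes (Kdr, Robo4, Slc2a1 and Rgs5) and for 5.77% of all genes. No vascular gene had all sponge mice above all controls, a pattern of 5.71% of all genes. The log2 fold change of Kdr was -0.23 ± 0.06 (unadjusted p = 0.00381, adjusted p = 0.481, edgeR), and it stayed between -0.26 and -0.21 whichever mouse was left out. Flt1, the other VEGF receptor tested, had a log2 fold change of -0.12 ± 0.07 with overlapping groups. All 5 tested receptor genes had a negative estimate, of which those of Tie1 (-0.09 ± 0.10) and Ramp2 (-0.08 ± 0.08) were about as large as their standard error. Without GFP Ctrl mouse 8 the estimate was -0.03 ± 0.06 for Flt1, -0.04 ± 0.11 for Tie1 and -0.09 ± 0.09 for Ramp2.

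Robo4 had 10.3, 8.24 and 8.82 CPM in the GFP Ctrl mice of this experiment and 7.32, 7.91 and 6.57 in the GFP-miR-34sp mice. Its log2 fold change was -0.34 ± 0.13 (unadjusted p = 0.0271, edgeR), and without GFP Ctrl mouse 10 it was -0.24. The unadjusted p was above 0.05 without that mouse and without GFP-miR-34sp mouse 13 or 3. Vwf, the von Willebrand factor that endothelial cells store and release, had 27.4, 20.6 and 33.8 in GFP Ctrl and 23.04, 21.2 and 21.1 in sponge mice. These groups overlapped, and the log2 fold change of -0.33 ± 0.14 (unadjusted p = 0.0398, edgeR) was -0.15 without GFP Ctrl mouse 8 and -0.48 without GFP Ctrl mouse 4, the single fit without a mouse with an unadjusted p under 0.05.

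Among transporters, Slc2a1 had 109.8, 105.2 and 122.7 CPM in GFP Ctrl and 104.6, 103.7 and 101.8 in GFP-miR-34sp mice. The log2 fold change was -0.12 ± 0.06 (unadjusted p = 0.0497, edgeR) and -0.06 without GFP Ctrl mouse 8. Mfsd2a, the lysolipid transporter that limits vesicle transport across brain endothelium, pointed upward, with 22.3, 20.5 and 23.01 in GFP Ctrl and 26.2, 22.8 and 24.8 in sponge mice (log2 fold change 0.17 ± 0.08, unadjusted p = 0.0606, edgeR). Its groups overlapped by a narrow margin. The transcription factor Foxq1 had 9.29, 10.2 and 11.8 against 11.7, 12.04 and 13.0, a log2 fold change of 0.23 ± 0.12 (unadjusted p = 0.0694, edgeR). Podxl (podocalyxin, a sialomucin of the luminal surface) had 58.7, 59.6 and 69.5 against 61.0, 57.5 and 51.4, with -0.14 ± 0.08, and -0.06 ± 0.07 without GFP Ctrl mouse 8. Cldn5 had a log2 fold change of -0.03 ± 0.12, within its error.

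Of the mural genes after the miR-34 sponge, both tested smooth muscle genes had the largest estimates in size. Tagln had 10.9, 8.61 and 13.7 CPM in GFP Ctrl and 8.04, 8.79 and 9.66 in GFP-miR-34sp mice, with a log2 fold change of -0.33 ± 0.16 (unadjusted p = 0.0618, edgeR). Acta2 had 39.3, 33.9 and 42.7 in GFP Ctrl and 30.5, 31.01 and 37.8 in sponge mice, with -0.22 ± 0.10 (unadjusted p = 0.0458, edgeR). In both genes the highest mouse was GFP Ctrl mouse 8, and the groups overlapped. Without it the log2 fold changes were -0.15 for both and the unadjusted p was above 0.05.

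Vtn had 90.9, 91.4 and 122.3 in GFP Ctrl and 92.5, 89.2 and 86.7 in sponge mice, and its log2 fold change of -0.18 ± 0.10 was -0.02 without GFP Ctrl mouse 8. Rgs5 had 70.1, 79.2 and 67.1 against 67.0, 65.7 and 65.3, with all sponge mice below by a narrow margin, and a log2 fold change of -0.12 ± 0.06 (unadjusted p = 0.0647, edgeR). Leaving out mouse 8 gave -0.17 for Rgs5.

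**Figure D4:**
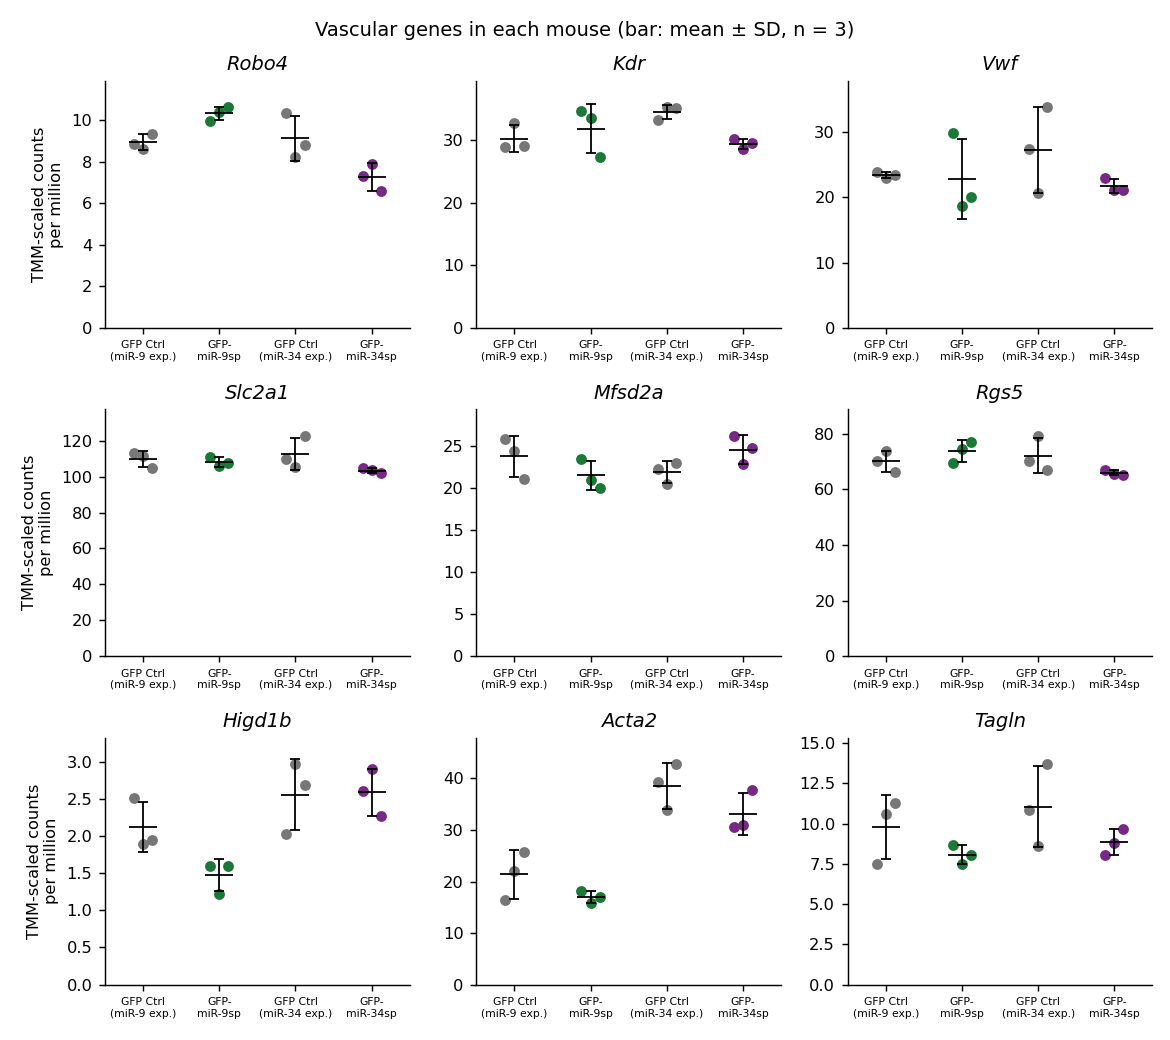
CPM of 9 vascular genes in each mouse (points), with mean ± SD of each group (bars, n = 3) and axes from 0. Robo4 is higher in GFP-miR-9sp and lower in GFP-miR-34sp mice than in their own controls, and Acta2 is lower in all 6 mice of the miR-9 experiment than in those of the miR-34 experiment.

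Markers of other cells and of neighbouring tissues are given beside these values. After the miR-9 sponge all 9 tested neuronal markers had a positive log2 fold change, 3 of them at an unadjusted p under 0.05 in edgeR's quasi-likelihood test, and their sum was 5044 to 5568 CPM in GFP Ctrl and 5621 to 6073 in sponge mice, without overlap. Of 8 tested microglia markers 7 had a negative estimate there, 1 of them at that limit. Beside these, 6488 of all 13045 genes were above 0 and 6557 below. At that limit 2.47% of all genes were higher and 2.26% lower. After the miR-34 sponge 8 of 9 tested astrocyte markers had a negative estimate, of which Gfap, at -0.19 ± 0.05 (unadjusted p = 0.00345, adjusted p = 0.464, edgeR), was at that limit, with astrocyte sums of 3616 to 3806 in GFP Ctrl and 3481 to 3660 in sponge mice. Choroid plexus epithelium hangs in the ventricle next to the hippocampus and has its own vessels. Its 10 markers (Folr1 at 0) summed to 666.1 to 2439 CPM in GFP Ctrl and 74.5 to 155.8 in GFP-miR-34sp mice, and all 8 tested were lower at an unadjusted p under 0.05 in edgeR's quasi-likelihood test, 4 of them at an adjusted p under 0.05. Its defining gene Ttr (transthyretin) had a log2 fold change of -4.34 ± 0.49. In the miR-9 experiment the sum was 121.9 to 729.6 in GFP Ctrl and 53.7 to 872.5 in sponge mice, with 0 of 8 tested markers at that limit. Plvap, a gene of fenestrated endothelium such as that of the choroid plexus, had log2 fold changes of -0.14 ± 0.13 after the miR-34 and -0.04 ± 0.11 after the miR-9 sponge.

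Fibroblasts and meninges, which accompany larger vessels and the brain surface, gave sums of 101.6 to 182.7 in GFP Ctrl and 90.2 to 101.5 in GFP-miR-34sp mice over 10 markers. Of the 9 tested, 8 had a negative log2 fold change, and the median was -0.32. At an unadjusted p under 0.05 in edgeR's quasi-likelihood test 3 were lower and 0 higher, beside 3.72% and 2.71% of all genes. The highest mouse was again GFP Ctrl mouse 8, at 182.7, beside 101.6 and 103.2 in the other controls. In the miR-9 experiment these markers gave 118.5 to 145.9 in GFP Ctrl and 164.9, 92.8 and 130.1 in GFP-miR-9sp mice, the lowest being mouse 23. There, 0 of the 9 tested passed the unadjusted limit. The part of these cells and tissues in the vascular values was not tested.

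**Figure D5:**
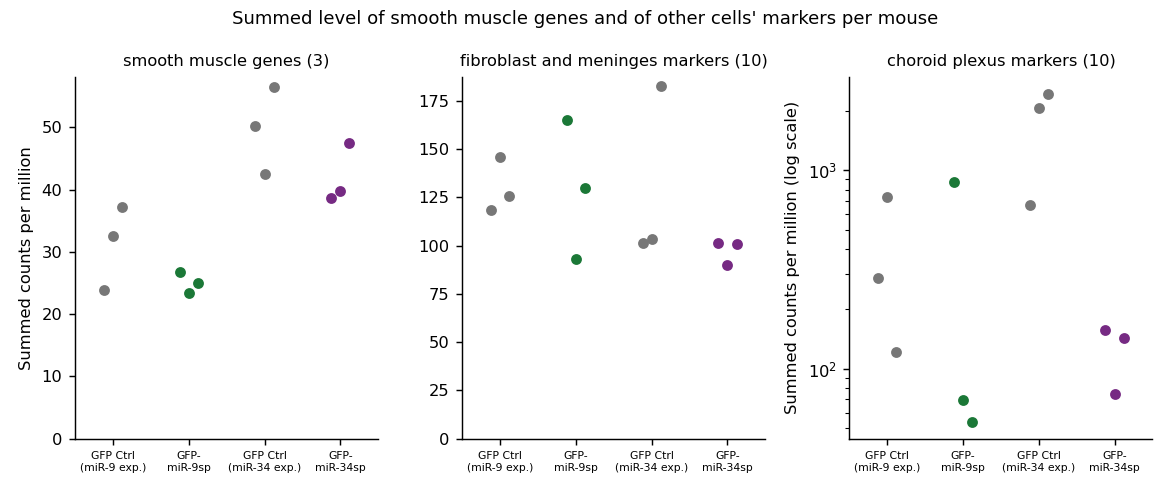
Summed CPM per mouse of the 3 smooth muscle genes, of 10 fibroblast and meninges markers, and of 10 choroid plexus markers (log scale). GFP Ctrl mouse 8 of the miR-34 experiment is the highest of its experiment in all 3 panels, at 56.4, 182.7 and 2439.

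Other genes of vascular signalling were counted from 5 lists. Of 11 tested ligands (Vegfa and Angpt1 were at 0), 0 passed an unadjusted p of 0.05 after the miR-9 sponge and 1 after the miR-34 sponge, Dll4, the Notch ligand of endothelial tip cells, at a log2 fold change of -0.55 ± 0.16 (unadjusted p = 0.00614, adjusted p = 0.54, edgeR). Of 12 tested genes of the Wnt pathway of the barrier, 1 was higher after the miR-9 sponge, Tspan12 at 0.14 ± 0.05. After the miR-34 sponge 2 were lower, the receptor Fzd4 at -0.43 ± 0.12 (adjusted p = 0.51, edgeR) and Reck at -0.21 ± 0.10, and 1 was higher, Apcdd1 at 0.16 ± 0.06. Fzd4 is the receptor that Norrin and Tspan12 act with. At the unadjusted limit 2.47% of all genes were higher after the miR-9 sponge. After the miR-34 sponge 3.72% were lower and 2.71% higher.

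Of the tested junction partners, 7 in the miR-9 and 6 in the miR-34 experiment, 0 passed the unadjusted limit in either. Among 16 further endothelial genes 2 were higher after the miR-9 sponge, the transferrin receptor Tfrc at 0.22 ± 0.05 (unadjusted p = 0.000963, adjusted p = 0.97, edgeR) and Lyve1 at 0.72 ± 0.32, and 0 passed after the miR-34 sponge. Which cells of the whole hippocampus gave the reads of Tfrc and Lyve1 was not tested. Of the further mural genes 0 of 13 passed after the miR-9 sponge and 3 of 12 were lower after the miR-34 sponge, Mylk (myosin light chain kinase) at -0.26 ± 0.08, Cald1 (caldesmon) at -0.14 ± 0.05 and Myl9 at -0.22 ± 0.10. Of all genes, 3.72% were lower at that limit after the miR-34 sponge and 2.47% were higher after the miR-9 sponge. The further mural genes had a median log2 fold change of 0.06 after the miR-9 sponge, with 8 of 13 above 0, and of -0.14 after the miR-34 sponge, with 10 of 12 below 0. Also below 0 there were 6 of 6 junction partners and 13 of 16 further endothelial genes, with medians of -0.18 and -0.06. After the miR-9 sponge these were 6 of 7 and 11 of 16, with medians of -0.05 and -0.04. Ligands below 0 were 9 of 11 after the miR-9 and 8 of 11 after the miR-34 sponge. For the Wnt genes it was 4 of 12 and 10 of 12. Of all genes, 6285 of 12492 were below 0 after the miR-34 sponge and 6557 of 13045 after the miR-9 sponge. In all, 0 genes of any of these lists passed the adjusted limit in either experiment.

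Whether the sponges differed in their effect was tested in 1 model of all 12 mice as the miR-34 effect minus the miR-9 effect. At an adjusted p of 0.05, 0 of 12835 genes passed (0%, and 5 with DESeq2), with a smallest adjusted p of 0.415 over all genes and 0.704 over the vascular genes in edgeR's quasi-likelihood test. At an unadjusted p under 0.05, 4 vascular genes had a lower effect of the miR-34 sponge, beside 3.55% of all genes, and 1 a higher effect, beside 2.55%. The lower genes were Robo4, Kdr, Abcb1a and Rgs5, and the higher gene was Mfsd2a. For Robo4 the difference was -0.55 ± 0.15 (unadjusted p = 0.0021), and it kept an unadjusted p under 0.05 in each of the 12 fits that left out a mouse. Kdr differed by -0.30 ± 0.12 (unadjusted p = 0.0206), Abcb1a by -0.18 ± 0.08 (unadjusted p = 0.0439), Rgs5 by -0.20 ± 0.09 (unadjusted p = 0.0382) and Mfsd2a by 0.32 ± 0.13 (unadjusted p = 0.0246), all in edgeR. The unadjusted p was above 0.05 in 7 of the 12 fits without a mouse for Abcb1a and for Rgs5, as with DESeq2 and total-count scaling, in 4 of 12 for Mfsd2a and in 3 of 12 for Kdr.

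The values behind the last 3 of these were small steps in opposite directions. Abcb1a had 54.8, 54.4 and 51.7 CPM in GFP Ctrl and 58.7, 53.2 and 55.1 in GFP-miR-9sp mice, and 61.8, 62.2 and 68.9 in GFP Ctrl and 62.2, 58.3 and 56.1 in GFP-miR-34sp mice. Rgs5 had 70.3, 73.8 and 66.1 in the GFP Ctrl mice of the miR-9 experiment and 69.4, 74.6 and 77.2 in the sponge mice. Mfsd2a had 25.8, 24.5 and 21.1 against 23.5, 21.0 and 20.1 there. Groups overlapped for all 3 genes in the miR-9 experiment. Acta2 and Tagln, lower after both sponges, had differences of 0.10 ± 0.19 and -0.06 ± 0.24 between the effects.

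The GFP Ctrl mice of the experiments received the same kind of vector, and comparing them shows how far the experiments themselves differed. Of 12878 genes, 1508 (11.7%) were higher and 1735 (13.5%) lower in the miR-9 than in the miR-34 experiment at an adjusted p under 0.05 in edgeR's quasi-likelihood test. Of the 28 vascular genes 0 were higher and 3 lower. Acta2 differed most, with 16.4 to 25.8 CPM against 33.9 to 42.7 and no overlap, a log2 difference of -0.85 ± 0.14 (adjusted p = 0.00191, edgeR). Its log2 fold changes after the sponges, -0.33 and -0.22, were smaller in size. Abcb1a differed by -0.24 ± 0.05 (adjusted p = 0.0089, edgeR) and Itm2a by -0.21 ± 0.07 (adjusted p = 0.0473, edgeR), the latter losing the adjusted limit with total-count scaling and in 5 of the 6 fits that left out a mouse.

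Tagln had a log2 difference of -0.17 ± 0.19 in that comparison, within its error, and the pericyte genes lay between -0.23 (Higd1b) and 0.14 (Anpep). The medians of 22 endothelial and 6 mural genes were -0.02 and -0.09. Choroid plexus markers were lower as well in the GFP Ctrl mice of the miR-9 experiment, 6 of 8 tested at the adjusted limit in edgeR, whereas 0 of 9 fibroblast and meninges markers were. The word totRNA stands in the column headers of the miR-9 mice alone, and experiment, sequencing run and preparation cannot be told apart.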

How the data were processed

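The deposited values are raw counts of reads per RefSeq transcript, which the authors made from 50 bp single end reads of poly-A RNA, beside another value, the transcript length in bases. The methods name mm9 as the genome, while the submitters' processing notes list STAR and mm10. The counting tool is not given in the sources used here, and no coordinates were needed for the counts. Of 32850 entries, 98.7% were joined to gene symbols through RefSeq accessions and summed to 24209 genes.

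Groups came from the labels. The titles of 1 set of GFP Ctrl mice name miR-34. The remaining 3 were taken as the controls for miR-9, as the methods state 3 controls per experiment. Sponge and control mice share no pairing label. The p-values set a group difference against the spread between these mice, which edgeR moderates over all genes tested.

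Genes with a mean above 10 scaled reads were tested with edgeR 4.0.16 under R 4.3.3 by its quasi-likelihood test, with TMM scaling and Benjamini-Hochberg adjustment over all genes tested. CPM values used TMM factors of all 12 mice, a count of 0 allows up to 3 reads, and such limits cover counting error only. The alternatives were DESeq2 1.42.0, other scalings and filters, 1 model of 12 mice, the largest entry per gene, the methods' rule (an unpaired two-sided test and a ratio of 1.2) and leaving out each mouse. The code was tested on simulated data. Figures used Python 3.11.15 and matplotlib 3.10.9.

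The 40 genes and all lists were chosen with earlier results of these data known, so no test over a list was made. Values per mouse are given for genes with an unadjusted p under 0.05 in a sponge comparison or their difference, for the gene of largest log2 fold change of each role after each sponge and for the smooth muscle genes. From the other lists of vascular genes at most 3 with the smallest p were named, and Plvap was added after its values were seen, as a gene of fenestrated endothelium.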

Additional observations from a re-analysis of the deposited data

Results flagged for a closer look

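Robo4 was the single vascular gene whose 3 GFP-miR-9sp mice were all above their GFP Ctrl mice while its 3 GFP-miR-34sp mice were all below theirs. The difference between the sponge effects was -0.548 on the log2 scale (unadjusted p = 0.0021, adjusted p = 0.704, edgeR's quasi-likelihood test), so it failed the adjustment over 12835 genes. Such opposite separation was found in 74 of the 12835 genes (0.577%). Robo4 had 6.57 to 10.6 CPM over the 12 mice.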

How the results depend on the processing

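No vascular gene passed the adjusted limit after either sponge in any of the fits, and no estimate larger than its standard error changed sign. After the miR-9 sponge, the number of all genes at an adjusted p under 0.05 was 0, and 2 with DESeq2 and without a filter. The vascular genes higher at the unadjusted limit were 1, and 0 with DESeq2, without a filter and with total-count scaling. The lower ones were 2, against 1 with DESeq2 and 0 with the filter above 100 reads. The methods' rule gave 188 genes, with 0 vascular genes higher and 1 lower (Higd1b). Leaving out a mouse gave 0 to 1 genes, 1 to 2 vascular genes higher and 0 to 3 lower. After the miR-34 sponge, the 8 genes became 0 in 1 model of 12 mice and with the filter above 100 reads, 4 with RLE size factors, the largest entry per gene and total-count scaling, 36 with DESeq2, 81 without a filter and 250 by the methods' rule. The 5 lower vascular genes became 3 in 1 model of 12 mice, with DESeq2, total-count scaling and the filter above 100 reads, 10 without a filter and 0 by the methods' rule. Leaving out a mouse gave 0 to 57 genes, 57 being without GFP Ctrl mouse 10, with 0 to 2 vascular genes higher and 2 to 7 lower, and an endothelial median from -0.117 to -0.042, the last without GFP Ctrl mouse 8. For the difference between the effects, DESeq2 gave 5 genes, and 2 lower vascular genes as did total-count scaling. Leaving out a mouse gave 0 to 1 genes, 0 to 2 vascular genes higher and 2 to 6 lower. The mural median ranged from -0.267 to -0.099 after the miR-9 and from -0.180 to -0.086 after the miR-34 sponge. Without the 5 genes set apart as known from other cells as well, the endothelial median was 0.007 after the miR-9 and -0.082 after the miR-34 sponge. The cause was not tested. An estimate within 1 SE of 0 was taken to have no direction. No paired analysis was possible because the mouse numbers of a sponge group and its controls do not pair mice.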
